A study of Drosophila melanogaster with 63 samples.

Results

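The Su(Hw) peaks of Kc167 cells, a female line derived from Drosophila embryos, were compared between cells depleted of NURF301 and mock cells. The members were the Su(Hw) chromatin immunoprecipitation sequencing (ChIP-seq) peak lists of both groups, 6 of the 63 samples of the series. Peaks that shared at least 1 bp were merged, which gave 4671 sites on the 6 main chromosomes (X, 2L, 2R, 3L, 3R and 4). The 3 knockdown samples came from cells transfected with 5 ug of double-stranded RNA against Nurf301 and kept for 4 days. The 3 mock samples carry the label mock, and the labels do not say what these cells received. A second series of 3 Su(Hw) lists from mock cells, titled mock2, was used to choose sites and as a further set of control lists. A further 3 Su(Hw) lists, used in checks, came from cells with knockdown of Su(Hw) itself. These cells also had 5 ug of double-stranded RNA and 4 days. Every group is labelled as the same cell line, and the labels do not state whether replicates were separate cultures. The p-values below therefore measure only the spread between these samples, which may be technical.

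NURF301 is the largest subunit of NURF, a remodelling complex that slides nucleosomes with the ATPase Iswi. Su(Hw), a zinc finger protein, makes the DNA contact at the gypsy insulator, where CP190 and Mod(mdg4)67.2 join it. Chromatin insulators limit the action of enhancers and silencers between neighbouring domains, and NURF301 has been tied to the gypsy insulator. The comparison asks whether Su(Hw) stays on chromatin when NURF301 is depleted.

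The labels were checked against independent lists. The NURF301 ChIP lists held 253, 1 and 24 peaks after NURF301 knockdown, against 8216, 8121 and 5449 in mock cells. The Su(Hw) lists held 74, 77 and 96 peaks after knockdown of Su(Hw) itself. Their median -log10 q was 25.3, 20.5 and 37.1. Read depth is not stated in these sources. Peak number and the -log10 q of the peaks are given instead, and neither separates depth from occupancy. The median -log10 q of a Su(Hw) peak was 39.0, 19.2 and 42.6 in the knockdown lists, against 139, 155 and 96.0 in the mock lists.

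Knockdown of NURF301 left most Su(Hw) sites with a peak, but each knockdown list was shorter than each mock list. The knockdown lists held 3539, 2625 and 3315 Su(Hw) peaks, against 4506, 4607 and 3990 in the mock lists. Knockdown replicate 2 was the shortest list and mock replicate 2 the longest, and the groups did not overlap. The means were 3160 ± 476 peaks in knockdown cells and 4368 ± 331 peaks in mock cells (SD, n = 3 each). The log2 difference was -0.48, with an exact two-sided permutation p of 0.1, the smallest that 3 against 3 lists can give. The mock2 lists were longer again, with 5165, 5182 and 5358 peaks. Almost every knockdown peak lay at a site that mock cells also had: 96.9% to 100% of the peaks of a knockdown list overlapped a peak of any mock list.

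The lists of the groups also differ in the kind of value they hold. A fold enrichment and its p-value together give the read pileup at a summit, which is a whole number where reads were counted unscaled. Among solvable peaks it was whole within 0.005 for 2.0%, 3.73% and 4.06% in the knockdown lists, against 100% in each mock list. In the mock2 lists it was whole for 4.37%, 2.39% and 4.20%. It can differ within a group: in the Su(Hw) lists after Su(Hw) knockdown it was whole for 4.11%, 1.30% and 100%. The cause of the difference was not tested. In the comparison with the mock lists, this difference and the knockdown cannot be told apart. The mock2 lists share the knockdown lists' kind of value, and results against them are given beside those that change.

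**Figure D1:**
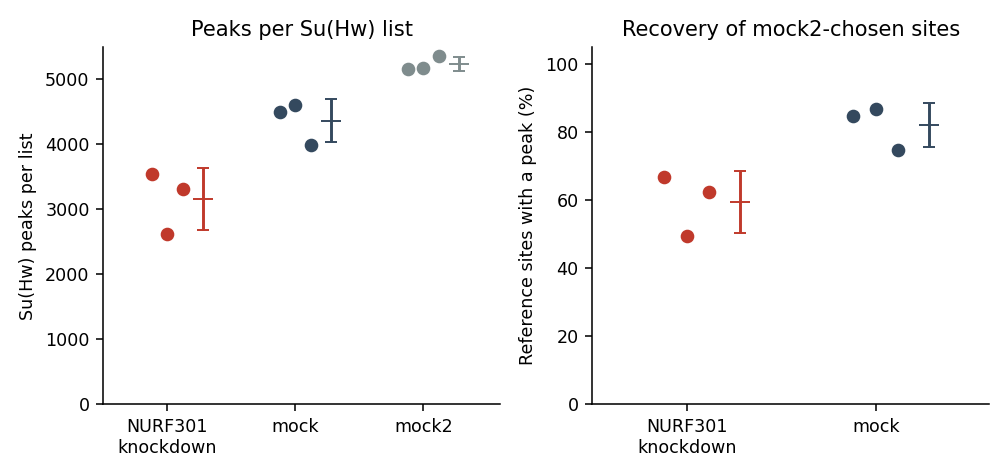
Left, Su(Hw) peaks on the main chromosomes in each list (points) for NURF301 knockdown, mock and mock2. Right, percent of the 5174 sites chosen from the mock2 lists that had a peak in each knockdown and mock list. Bars to the side of the points give mean ± SD (n = 3 lists); the 3 knockdown lists lie below the 3 mock lists in both panels.

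Peak presence was next measured at 5174 Su(Hw) sites that neither group had helped to choose, those found in 2 or 3 of the mock2 lists. Of these sites, 66.9%, 49.4% and 62.4% had a peak in the knockdown lists, against 84.7%, 87.0% and 74.9% in the mock lists. The means were 59.6% ± 9.09 after knockdown and 82.2% ± 6.42 in mock cells (SD, n = 3 each). All 3 knockdown lists were below all 3 mock lists, by 22.6 percentage points on average, a difference written as -22.6 (exact permutation p = 0.1). Since 98.8% to 99.96% of the peaks of each list lay at one of these sites, recovery over all of them follows the length of the list. Cutting each list to its 2625 peaks with the highest -log10 q set recovery at 49.4% to 50.8% in all 6 lists, so the overall share cannot be compared at equal length.

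The sites without a peak after knockdown were mainly those with narrow peaks in the mock2 lists. In decile 1 of width, the narrowest sites, 1.22% ± 1.06 had a Su(Hw) peak after knockdown and 15.9% ± 10.7 in mock cells. In decile 3, where the difference was greatest, 38.8%, 14.9% and 30.1% of sites had a peak in knockdown lists, against 81.9%, 88.4% and 53.3% in mock lists. In decile 5 the shares were 78.9%, 51.1% and 71.8% after knockdown and 98.6%, 99.0% and 93.8% in mock cells. In decile 10, the widest sites, 93.6% ± 5.86 of sites kept a peak after knockdown and 99.7% ± 0.30 had one in mock cells (SD, n = 3 each). Su(Hw) peaks at the broadest sites were thus nearly all still called after NURF301 knockdown, with 86.8% in the shortest list.

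**Figure D2:**
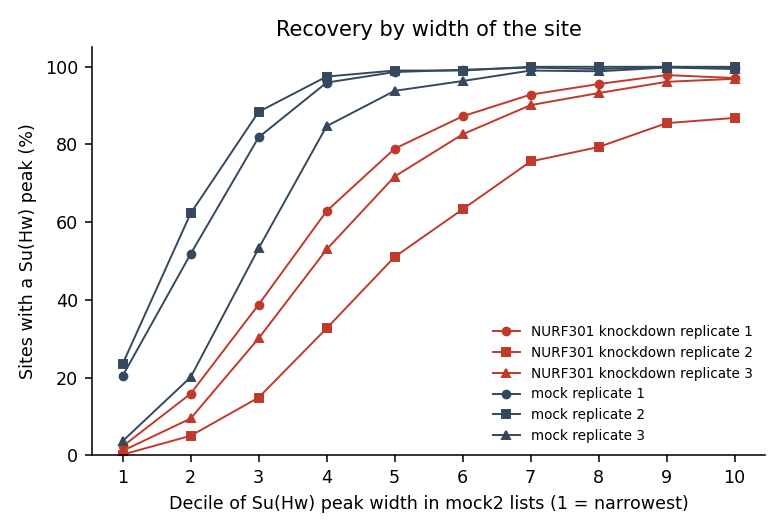
Percent of sites with a Su(Hw) peak (vertical axis) in each decile of the 5174 sites by mean peak width in the mock2 lists (horizontal axis, 1 is narrowest), one line per list. Knockdown and mock lines stand furthest apart in deciles 2 to 5 and come together at the widest sites, where knockdown replicate 2 stays lowest at 86.8%.

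The share of sites with a Su(Hw) peak after knockdown differed with the insulator proteins at the site. CP190, Mod(mdg4)67.2 and NURF301 were marked at a site when at least 2 of their 3 mock lists had a peak there. At the 1125 sites with all of these proteins, 94.4%, 78.7% and 94.7% had a Su(Hw) peak in knockdown lists, against 99.2%, 99.5% and 98.2% in mock lists. At the 834 sites with CP190 and Mod(mdg4)67.2 but no NURF301, the shares were 83.8%, 66.4% and 82.5% after knockdown and 99.2%, 99.6% and 97.7% in mock cells. Nearly all sites of both classes had a peak in mock lists, whereas the knockdown means were 89.2% ± 9.16 with NURF301 and 77.6% ± 9.68 without it (SD, n = 3 each).

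The 1812 sites with CP190 alone had a Su(Hw) peak in 61.9% ± 10.9 of cases after knockdown and in 88.9% ± 7.45 in mock cells. The 165 sites with CP190 and NURF301 but no Mod(mdg4)67.2 had one in 38.6% ± 8.23 after knockdown and in 70.9% ± 10.1 in mock cells. The 1228 sites with none of these proteins had the lowest shares, 19.98% ± 7.21 after knockdown and 47.4% ± 13.3 in mock cells (SD, n = 3 each). The classes differ in width too: their median width percentile in the mock2 lists was 66.5 with all of the proteins, 69.5 with CP190 and Mod(mdg4)67.2, 47.4 with CP190 alone, 22.4 with CP190 and NURF301, and 18.1 with none. The part of width in the order of the classes was not tested.

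**Figure D3:**
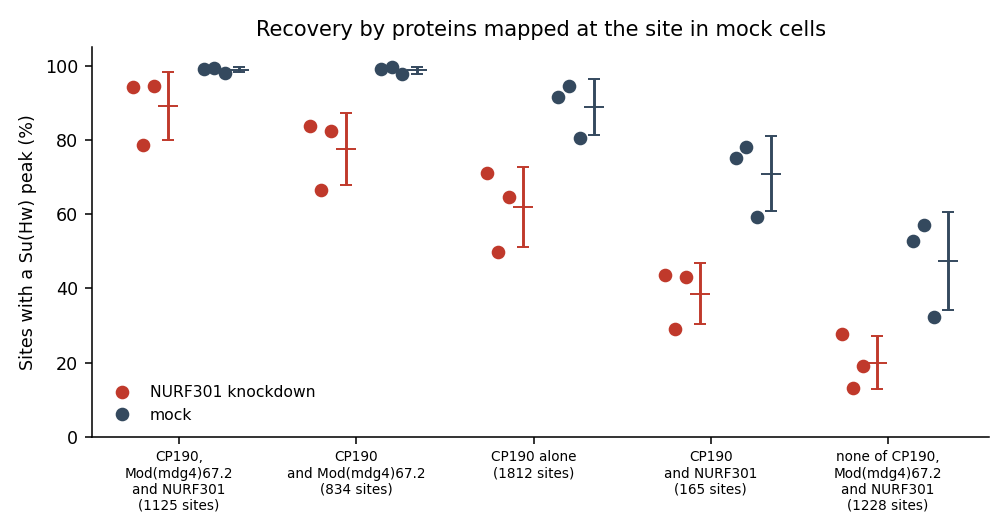
Percent of mock2-chosen sites with a Su(Hw) peak in each list (points), by the proteins mapped at the site in mock cells, with mean ± SD beside the points (n = 3 lists). In every class shown the 3 knockdown lists lie below the 3 mock lists; 2 classes with 8 and 2 sites are not drawn.

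Su(Hw) peaks were kept more often at NURF301 sites than at other sites after knockdown, and this was set against the same gap in mock cells. The gap was the share of NURF301 sites (1298) with a Su(Hw) peak minus that of the other sites (3876), averaged over 10 strata of fold enrichment in the mock2 lists. It was 39.0, 39.4 and 45.2 percentage points in the knockdown lists, against 25.8, 22.4 and 37.8 in the mock lists. The groups did not overlap, and the knockdown gap was wider by 12.5 points (exact permutation p = 0.1). Strata of peak width in place of fold gave gaps of 9.26, 13.6 and 14.8 in knockdown lists and 3.18, 2.71 and 5.69 in mock lists, a difference of 8.67 points (exact permutation p = 0.1).

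The direction of that difference turned with list length. In lists of 2625 peaks each, the gap was 49.0, 39.4 and 50.9 percentage points after knockdown and 57.2, 56.2 and 56.8 in mock cells, a difference of -10.3 (exact permutation p = 0.1). With only peaks of a -log10 q of at least 20 the difference was 3.44 points (exact permutation p = 0.8). Against the mock2 lists it was 3.22 points (exact permutation p = 0.1). For that value the sites and strata were chosen from the mock lists, so the sites are not the same. These lists therefore give no fixed direction for the presence of Su(Hw) peaks at NURF301 sites relative to other sites.

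Within the sites that have CP190 and Mod(mdg4)67.2, recovery was compared by NURF301 at like width. In decile 3, 54.7% ± 19.7 of 25 sites with NURF301 and 41.4% ± 15.0 of 29 sites without it had a Su(Hw) peak after knockdown, against 89.3% ± 6.11 and 93.1% ± 3.45 in mock cells. Decile 4 had the widest contrast. In decile 4 of width, 92 sites with NURF301 had a Su(Hw) peak in 90.2%, 58.7% and 90.2% of cases in knockdown lists, against 100%, 100% and 97.8% in mock lists. The 65 sites of the same decile without NURF301 had one in 41.5%, 21.5% and 40.0% after knockdown, against 98.5%, 100% and 93.8% in mock cells. In decile 5, 86.4% ± 13.2 of 142 sites with NURF301 and 59.5% ± 11.5 of 98 sites without it had a peak after knockdown, against 100% and 97.6% ± 2.57 in mock cells. In decile 9, 95.3% ± 5.34 of 157 sites with NURF301 and 95.6% ± 5.06 of 137 sites without it kept a Su(Hw) peak after knockdown. Mock lists had a peak at 100% of both sets in that decile. In lists of equal length the contrast was present in both groups: in decile 4, 73.6% ± 13.1 of sites with NURF301 and 26.7% ± 4.70 of those without had a peak after knockdown, against 89.1% ± 1.09 and 35.4% ± 4.07 in mock cells (SD, n = 3 each).

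CP190 peaks were called at fewer of the same sites than Su(Hw) peaks in every knockdown replicate. At 3394 sites with both Su(Hw) and CP190 in the mock2 lists, Su(Hw) peaks were present at 80.9%, 63.6% and 79.1% in knockdown lists, against 94.7%, 95.8% and 90.4% in mock lists. CP190 peaks were present at 50.8%, 29.1% and 39.2% of these sites in knockdown lists, against 98.2%, 97.4% and 98.1% in mock lists. In every mock replicate Su(Hw) recovery was below CP190 recovery instead. The gap between both antibodies was 34.8 ± 4.90 percentage points after knockdown and -4.25 ± 3.14 in mock cells, a difference of 39.1 (SD, n = 3 each, exact permutation p = 0.1). The CP190 lists themselves were shorter after knockdown, at 5463, 4091 and 4226 peaks, against 10553, 10095 and 10467 in mock cells. Their median -log10 q was 34.5, 22.7 and 21.7 after knockdown, against 145.5, 147 and 153 in mock cells. In lists of equal length per antibody the difference in the gap was 8.33 points (exact permutation p = 0.1). Same-numbered Su(Hw) and CP190 lists are separate immunoprecipitations, and their depths may differ.

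**Figure D4:**
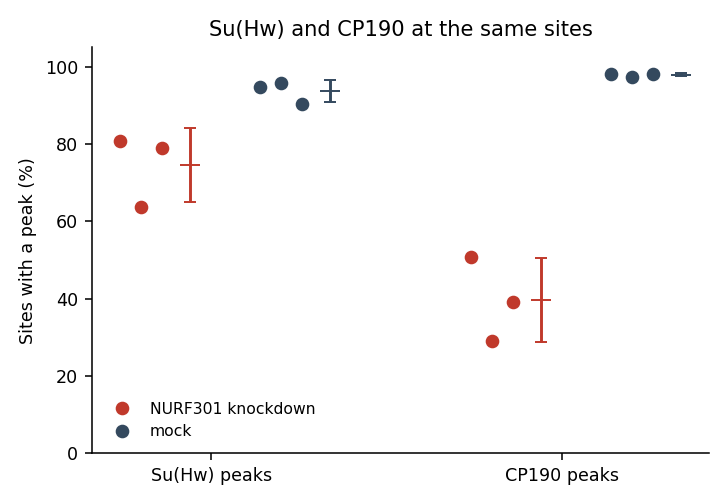
Percent of the 3394 sites with Su(Hw) and CP190 in the mock2 lists that had a Su(Hw) peak (left) or a CP190 peak (right) in each list, with mean ± SD beside the points (n = 3 lists). CP190 stands at 29.1% to 50.8% after knockdown, where Su(Hw) stands at 63.6% to 80.9%.

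Site by site, Su(Hw) often stayed where CP190 was not called. Of 3381 sites with Su(Hw) and CP190 peaks in all mock lists of both antibodies, 850 kept Su(Hw) in all 3 knockdown lists and had no CP190 peak in any. Both proteins were kept in all lists at 754 sites, and both were absent from all knockdown lists at 288. The reverse pattern, CP190 in all 3 knockdown lists and Su(Hw) in none, was found at 22 sites. The 850 sites were 797 of the 2184 sites without NURF301 and 53 of the 1197 sites with NURF301, whereas all 22 of the reverse pattern had NURF301. CP190 was absent from all knockdown lists at 71.5% of sites without NURF301 and at 9.02% of sites with it. Su(Hw) was absent from all of them at 12.1% of sites without NURF301 and at 4.59% with it. The 850 of 3381 became 480 of 3202 with peaks of a -log10 q of at least 20. They became 330 of 2423 against the mock2 lists and 121 of 1186 in lists of equal length. The 22 became 12, 47 and 6 of the same totals, and 42 of 3626 without mock replicate 3.

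The 5 strongest sites that kept Su(Hw) and had no CP190 peak are described here. For a site in all 6 lists, a percentile is its rank of fold enrichment among the 2475 sites in all 6, so that lists of different length rank the same sites. For lost sites, and others not in all 6 lists, it is the rank among all peaks of the list, and values of both groups are not set side by side. The strongest was 5996 bp from CG14877 (chromosome 3R, 15882086 to 15883198), at percentile 97.9, 84.8 and 92.3 in knockdown lists and 99.0, 99.6 and 99.3 in mock lists. The next lay inside aus, which ranked at 74.2, 56.7 and 80.1 after knockdown and 99.3, 97.6 and 99.7 in mock lists. A site at the boundary of nSyb, the neuronal synaptobrevin of synaptic vesicle fusion, and GC stood at percentile 95.9, 43.2 and 77.7 in knockdown lists, against 96.9, 94.2 and 97.6 in mock lists. Sites 12700 bp from CG42694 and 681 bp from CG6893 completed the 5 strongest, and the CG6893 site had Mod(mdg4)67.2 without NURF301 while the CG42694 site had both. The first 3 had neither. The reverse pattern was led by sites in or at CG43658, CG12075, CG9380, dysf (a bHLH-PAS transcription factor) and Sytbeta with Reck. Their mean mock percentiles were only 26.2 to 36.7.

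Presence per list was then counted over all 4671 merged sites. A Su(Hw) peak was in all 3 mock lists and no knockdown list at 434 sites, 9.29% of the merged sites. None had the opposite pattern (0.0%), and 2475 sites had a peak in all 6 lists. Of the 3885 sites in all 3 mock lists, 294 were in 1 knockdown list and 682 in 2. The count of 434 became 817 without mock replicate 3, 1400 with the mock2 lists in place of mock and 101 in lists of equal length, where 87 sites had the opposite pattern. Between both mock series, 4 of 5439 merged sites (0.0735% of sites) were in all mock and no mock2 list, and 443 (8.14% of sites) had the opposite pattern. A count of this kind thus arose between control lists as well.

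The 434 lost sites were narrower and less often shared with partner proteins than the 2475 kept in every list. Their median width percentile in the mock2 lists was 36.0, against 71.0 for kept sites, while the median fold percentile was 58.9 for lost and 60.5 for kept sites. NURF301 lay at 13.4% of lost and 37.7% of kept sites. Mod(mdg4)67.2 lay at 32.3% of lost and 57.6% of kept sites, and CP190 at 77.6% of lost and 94.2% of kept sites. By class, 2.99% of the 1104 sites with all of these proteins in mock cells were lost, and 12.9% of the 813 with CP190 and Mod(mdg4)67.2. The share lost was 11.9% of the 1467 with CP190 alone and 23.6% of the 399 with none. Of the 96 sites with CP190 and NURF301 but no Mod(mdg4)67.2, 25.0% were lost, so NURF301 sites were not lost less often in every class. Sites at gene boundaries, within 500 bp of an annotated gene end, made up 19.8% of lost and 26.3% of kept sites.

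A few lost sites ranked high by fold enrichment in the mock lists. The highest lay 322 bp from CG45076 (chromosome 3R, 10768323 to 10770330), with mock percentiles of 95.4, 96.0 and 93.4 and a mock -log10 q of 291, 322 and 177. It carried CP190, Mod(mdg4)67.2 and NURF301 in mock cells, and CP190 was also in no knockdown list. A site 1188 bp from the mucin-related gene Mur11Da (chromosome X, 12965978 to 12966700) ranked at 97.6, 96.3 and 74.4 in mock lists. One 10497 bp from MFS17 (chromosome 2R, 2483689 to 2484245) ranked at 97.1, 99.8 and 53.1 there. Its mock -log10 q was only 71.6, 90.7 and 41.2, below the list medians of 139, 155 and 96.0.

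One at the boundary of IRSp53, an adaptor of the actin cytoskeleton, and CG14143 ranked at 58.7, 91.2 and 93.9 in mock lists, and CP190 was kept there in 1 knockdown list. A site inside Trhn, the neuronal tryptophan hydroxylase of serotonin synthesis (chromosome 3L, 1191412 to 1192091), had a mock -log10 q of 358, 373 and 257. The site between the serine protease genes Jon65Aii and Jon65Aiii ranked at 80.6, 86.1 and 50.9 in mock lists. The 10 highest by fold were completed by a site inside sbm and by sites 676, 4718 and 6713 bp from CG4213, nur and CG14598. By -log10 q, the Jon65Aii site (138, 154 and 68.9) and the sbm site (131, 149 and 47.8) also lay below the median of every mock list. The nur site lay below it in mock replicate 1 only. The sites at CG45076, Mur11Da, IRSp53, Trhn, CG4213 and CG14598 lay above the median of every mock list. Of these 10 sites, mean mock percentiles ran from 69.5 to 94.9, against a median of 21.8 over all 434 lost sites.

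Only 4 merged sites had a peak in knockdown lists and none in the mock lists. The site beside Cdc6, which loads the replicative helicase at origins, was in knockdown replicates 1 and 3 at percentile 12.1 and 33.0. The other 3, inside sky, inside dpr1 and at CG5281 with Exd2, were in 1 knockdown list each at percentile 4.34 to 30.8. All 4 were weak peaks, and the sites at Cdc6 and at dpr1 also had a peak in 1 and 3 of the mock2 lists.

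Su(Hw) sites were also counted for lists of genes, where they lay inside the annotated span of a listed gene or within 500 bp of it; the span can hold further genes. Of 58 sites at neuronal genes present in all mock lists, 4 were lost and 39 kept in every list, against 11.2% lost and 63.7% kept over all 3885 such sites. The strongest kept neuronal sites were at nSyb, at mGluR (a metabotropic glutamate receptor), at brp (the active zone protein Bruchpilot) and at Sh (the Shaker potassium channel). The mGluR site, on chromosome 4, ranked at 98.2, 77.9 and 71.1 in knockdown lists and 91.7, 95.5 and 93.2 in mock lists. Lost neuronal sites were at scrt, eag, Sh and Snap25, with mean mock percentiles of 1.32 to 30.2. The Snap25 site had no peak in any mock2 list either, whereas those at scrt, eag and Sh were in all 3 mock2 lists.

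Of 11 sites at Hedgehog and Wingless pathway genes, 4 were lost and 3 kept in every list. Lost ones were at Wnt4 (a ligand), fz2 (a receptor), sgg (the kinase of the destruction complex) and ci (the transcription factor of Hedgehog signalling). The ci site ranked at 26.3, 42.8 and 30.2 in mock lists, and the Wnt4 site at 38.5, 63.3 and 17.0. Both sgg and fz2 also had a stronger site: sgg kept 2 sites in all knockdown lists, and fz2 kept 1 in 2 of them. The strongest site of the list, at the receptor gene fz3, was present in knockdown replicates 1 and 3 but not in replicate 2, and in all mock lists.

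Ecdysone response genes had 25 sites in all mock lists, of which 5 were lost and 11 kept in every list. The lost ones were at Hr4, Eip74EF, br (the Broad transcription factor), Kr-h1 and ImpL2, with mean mock percentiles of 6.13 to 27.7. The site counted for Kr-h1 lay in its span and 78 bp from an end of CG45075. Eip74EF, an ETS factor, also kept a strong site at percentile 74.2, 78.8 and 89.1 after knockdown and 77.3, 81.6 and 72.0 in mock lists. Muscle genes had 10 sites, with 3 lost and 7 kept. The lost ones were at Mef2, the muscle transcription factor, and at 2 places in or beside twi, the mesoderm regulator, whose strongest site was kept at percentile 73.7, 92.7 and 80.0 in knockdown lists and 96.2, 96.3 and 96.1 in mock lists.

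The 12 sites at hemocyte genes included none that was lost and 9 kept in every list, such as those at Pxn (peroxidasin), vkg (a collagen IV chain) and Hml (hemolectin). Of 12 sites at loci linked to insulators in earlier work, 11 were kept, among them sites at sgg and ct, and 1 was lost, at sgg. A kept site in the span of Bx lay at the boundary of HisRS and CG6481. Genes of insulator proteins had 6 sites, of which 4 were kept and none lost. One of these lay at su(Hw) itself, beside Polr2I, and ranked at 6.51, 0.04 and 5.98 in knockdown lists, against 15.9, 8.53 and 72.9 in mock lists. The other 3 were inside shep, an RNA-binding modulator of insulator activity.

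Chromatin remodeller genes had 3 sites, with 1 lost and none kept in every list. The lost site lay in the span of Ino80, at the boundary of CG18493. Hox genes had 5 sites with none lost and 3 kept, and the site inside Ubx ranked at 95.9, 99.7 and 82.5 in knockdown lists and 87.0, 72.7 and 87.9 in mock lists. JAK/STAT and germline genes had 3 sites each with 2 kept and none lost, fat body genes had 3 with all 3 kept, and heat shock genes had no Su(Hw) site. These counts are small and were not tested.

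Where Su(Hw) kept a peak, it lay at the same position. At the 2474 sites in all 6 lists and in the mock2 lists, the median distance from a list's summit to the mock2 summit was 10, 11 and 10 bp in knockdown lists, against 10, 10 and 11 bp in mock lists. Within 50 bp of the mock2 summit lay 92.2%, 91.9% and 91.4% of summits after knockdown, against 92.5%, 92.8% and 92.1% in mock cells, a difference of -0.67 percentage points (exact permutation p = 0.2). The median width of peaks at these sites was lower in each knockdown list, at 587, 453 and 538 bp, against 684, 800.5 and 613 bp in mock lists (difference -173 bp, exact permutation p = 0.1).

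The rank of fold enrichment was compared at the 2475 sites present in all 6 lists, so that each list ranked the same sites. Ranks were less alike among knockdown lists than among mock lists. Spearman's rho across sites was 0.11 to 0.22 between knockdown lists, -0.24 to 0.33 between a knockdown and a mock list, and 0.60 to 0.74 between mock lists. Ranked by -log10 q, it was 0.24 to 0.64, 0.05 to 0.74 and 0.93 to 0.95 for the same pairs. At the 2474 sites also in all mock2 lists, rho by fold was -0.16 to 0.51 between a mock and a mock2 list. It was 0.11 to 0.49 between a knockdown and a mock2 list, and 0.74 to 0.81 between mock2 lists. Ranked by -log10 q, rho for these pairs was -0.32 to 0.41, -0.21 to 0.31 and 0.56 to 0.76. Low values of rho thus arose between both mock series as well. Sites share their library and its depth, so these values are descriptions.

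limma on normal scores of the ranks, with Benjamini-Hochberg adjustment, called 33 sites higher (1.33% of sites) and 21 lower (0.848% of sites) in knockdown lists. NURF301 lay at 2 of the 33 higher and 19 of the 21 lower sites, against 37.7% of all sites tested. Mod(mdg4)67.2 lay at 3 of the 33 and 19 of the 21, against 57.6% of all. Leaving out any 1 mock list gave no call in either direction (unadjusted p under 0.05 at 202 to 220 sites higher and 153 to 185 lower), and leaving out knockdown replicate 3 gave 129 higher and 71 lower. Leaving out knockdown replicate 1 gave 7 higher and 3 lower, and leaving out knockdown replicate 2 gave 21 and 14.

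Of the lower sites, that near CG5790 (chromosome 2L, 18297651 to 18298679) ranked at percentile 19.6, 28.6 and 23.7 in knockdown lists and 96.1, 97.5 and 99.7 in mock lists. Its difference was -2.85 ± 0.54 normal scores (SE, limma adjusted p = 0.018). The site at S6KL, a kinase gene, ranked at 5.94, 10.9 and 2.10 after knockdown and 82.0, 70.5 and 90.2 in mock lists (difference -2.52 ± 0.54, limma adjusted p = 0.029). The site 32905 bp from CG6414, highest by mean percentile over the mock lists, ranked at 53.4, 96.3 and 70.1 after knockdown and 99.96, 99.96 and 100 in mock lists. The site at Tmhs ranked at 4.48, 14.1 and 22.1 after knockdown, against 92.3, 63.6 and 97.1 in mock cells. The rest of the 10 named lay inside CG42795 and CG12541, at the boundary of CG17108 and of CG42711 with Vajk2, and 655 and 2662 bp from CG5321 and CG34253. All 10 had CP190, Mod(mdg4)67.2 and NURF301 in mock cells.

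The 10 named higher sites lay near the bottom of the mock lists. A site inside mamo, a BTB zinc finger gene of the germline (chromosome X, 13867934 to 13868490), ranked at 82.1, 57.0 and 61.8 in knockdown lists, against 0.61, 0.69 and 1.41 in mock lists (difference 2.86 ± 0.53 normal scores, SE, limma adjusted p = 0.018). The site 1959 bp from ptc, the Hedgehog receptor, ranked at 50.7, 96.4 and 71.7 after knockdown and 2.06, 5.98 and 2.51 in mock lists (difference 2.65 ± 0.57, limma adjusted p = 0.029). The site inside jumu, a forkhead factor, ranked at 23.6, 26.0 and 53.7 after knockdown and 0.08, 0.04 and 0.40 in mock lists. Others named lay inside myd, CG34417, kairos and Mbs (the myosin-binding subunit of myosin phosphatase). The remaining 3 lay between genes, 9734 bp from Diedel3, 2441 bp from Sgsf and 11551 bp from pdm3 (a POU domain factor).

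**Figure D5:**
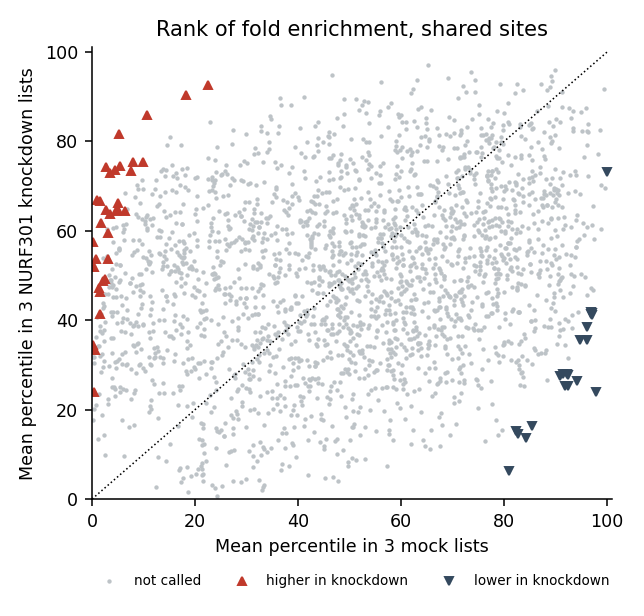
Mean percentile of fold enrichment over the 3 NURF301 knockdown lists (vertical axis) against that over the 3 mock lists (horizontal axis) at the 2475 sites in all 6 lists; the dotted line marks equality. The 33 sites called higher lie at the left and the 21 called lower at the right.

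The same ranks differed between both mock series. At 2474 sites in all 9 lists, limma called 502 sites higher (20.3% of sites) and 506 lower (20.5% of sites) in mock2 than in mock lists; this comparison shares the mock lists with the one above. NURF301 lay at 36 of the 502 higher and 385 of the 506 lower sites. Of the sites named above, that at ptc ranked at 36.6, 59.4 and 59.7 in mock2 lists and that at S6KL at 42.1, 12.2 and 27.3. The CG5790 site ranked at 73.7, 66.4 and 43.3 in mock2 lists. Against the mock2 lists in place of mock, 9 sites were higher and 9 lower in knockdown lists. None of the 20 named rank sites passed the threshold in that comparison: 19 kept their direction and 1 turned.

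Median percentiles were also taken by class. At the 882 sites with CP190, Mod(mdg4)67.2 and NURF301, the median percentile was 40.4, 24.9 and 46.5 in knockdown lists and 56.9, 50.7 and 67.6 in mock lists. It was 35.1, 30.3 and 25.2 in mock2 lists. At the sites with CP190 alone, 859 in number, it was 57.1, 68.3 and 51.7 in knockdown lists and 42.7, 48.3 and 30.5 in mock lists, while the mock2 lists had 59.2, 62.4 and 66.8. At the 543 sites with CP190 and Mod(mdg4)67.2 it was 57.3, 53.7 and 56.4 in knockdown lists and 55.3, 55.8 and 49.98 in mock lists. At the 48 sites with CP190 and NURF301 but no Mod(mdg4)67.2 the order was the other way, with 29.4, 55.6 and 43.9 in knockdown lists and 19.0, 19.6 and 14.9 in mock lists, while the mock2 lists had 25.1, 30.5 and 37.0. Ranked by -log10 q, the 882 sites stood at 65.6, 45.1 and 72.6 in knockdown lists and 79.6, 77.9 and 80.5 in mock lists, and at 52.4, 40.2 and 28.9 in mock2 lists.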

How the data were processed

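ChIP-seq peak lists of 30 Kc167 libraries in 10 groups were used. Per the submitters' processing notes, the tools were MACS2 2.2.7.1, Bowtie2 2.4.2, Picard 2.25.2 and SAMtools 1.12. Settings, control library and build are not given in the sources used here. Chromosome names are those of Release 6 of the genome. The authors deposited 1 list per library with a fold enrichment (a ratio), a -log10 p, a -log10 q and a score, which is 10 times the -log10 q without its decimals. Depth is unknown.

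Ranks were fitted with limma 3.58.1 in R 4.3.3. All else used scipy 1.17.1, pandas 2.3.3 and numpy 2.4.6 under Python 3.11.15, and figures matplotlib 3.10.9. Peaks off the main chromosomes were left out. Genes were the 13922 protein-coding genes of the RefSeq annotation, used for names and neighbours. Single values were compared by exact two-sided permutation over 20 splits. Calls used an adjusted p under 0.05. Pileups were solved for peaks with a -log10 p under 60. Each site bears the gene it lies in or the nearest one. Named were the 10 called rank sites with the greatest difference each way, the 10 lost and 5 kept sites highest in mock lists, and up to 4 sites and each lost site per gene list (13 lists). The 5 strongest sites of each joint Su(Hw) and CP190 pattern, the 4 knockdown-only sites and the equal-length and width settings were chosen after seeing values. Members and lists were chosen with earlier results of these data known. Code was tested on simulated data. For the rank fit, 200 of 2475 simulated sites were shifted by 1, 2 or 3 normal scores. It recovered 0, 67 and 140 of them, with 0, 7 and 15 false calls, so it misses small shifts.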

Additional observations from a re-analysis of the deposited data

How the results depend on the processing

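Su(Hw) peak number differed by -0.48 (log2) and, over all 6 mock lists, by -0.61, where the test takes both mock series as exchangeable although their peak numbers do not overlap, so its p is not used. Leaving out 1 list gave -0.56 to -0.35. Recovery differed by -34.7 to -22.5 percentage points over the other settings and by -26.2 to -17.5 when 1 list was left out. The value against the mock2 lists, -29.2, was taken at sites chosen from the mock lists, so its sites differ. Equal list length fixes recovery and is no test. The NURF301 gap ran from 9.39 to 17.1 without 1 list and turned to -10.3 in lists of equal length, where fewer mock peaks enter. The CP190 gap ran from 36.6 to 41.5 without 1 list. Lost sites numbered 439 to 817 without 1 list, 1400 against mock2 and 101 at equal length. Sites with the opposite pattern numbered 0 to 2 without 1 list, 10 by summits extended by 150 bp, 1 against mock2 and 87 at equal length. The 850 sites with Su(Hw) kept and CP190 absent became 857 to 1178 without 1 replicate, 480 at a -log10 q of at least 20, 330 against mock2 and 121 at equal length, and the 22 of the reverse pattern 21 to 42, 12, 47 and 6. The sites counted also changed, from 3381 to 3202 at that -log10 q, 2423 against mock2 and 1186 at equal length.

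Rank calls, higher and lower, were 0 to 129 and 0 to 71 without 1 list. They were 4 and 12 by -log10 q, 0 and 0 on percentiles (unadjusted 301 and 237), 18 and 13 at a -log10 q of at least 20, and 9 and 9 against mock2. Of 226 values of the 20 named rank sites under alternatives, 225 kept their direction and 136 no longer passed the threshold; CG12541 turned to 0.22 against mock2 (limma adjusted p = 0.87).

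With a replicate block, 156 sites were higher and 105 lower, and the other 4 tests gave the smallest sign-flip p, 0.25. Same-numbered lists deviated together by r of 0.03, 0.19 and 0.21, so the numbers were not taken as pairs; each knockdown list matched its own number best, and mock replicate 1 matched knockdown replicate 2 best. The cause of these changes was not tested. Unknown depth limits every count of absent peaks: a peak not called is not an empty site.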

Other observations

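Sites on chromosome 4 were few, and 33.3% ± 6.67 of its 15 mock2-chosen sites had a Su(Hw) peak after NURF301 knockdown, against 84.4% ± 15.4 in mock cells (SD, n = 3 each). On the 5 larger arms the knockdown means ran from 56.5% to 62.0% and the mock means from 80.8% to 83.2%. Sites at gene boundaries had a peak in 67.9% ± 8.65 of cases after knockdown and 87.1% ± 4.36 in mock cells. Sites inside genes had one in 57.0% ± 9.14 after knockdown and 80.6% ± 6.97 in mock cells. These sets differ in width too. The median width percentile in the mock2 lists was 36.2 on chromosome 4 and 47.7 to 53.5 on the larger arms. It was 55.5 at gene boundaries and 48.6 inside genes. The part of width in these differences was not tested.

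Peaks that remained in Su(Hw) lists after knockdown of Su(Hw) itself overlapped 114 of the 4671 merged sites. Of these, 91 were kept in all 3 NURF301 knockdown lists, 22 in 2 and 1 in 1, and none was among the 434 lost sites. All 114 were thus among the 3885 sites in all 3 mock lists. Of those 3885 sites, 63.7% were kept in all 3 NURF301 knockdown lists and 11.2% were lost. A further 682 of the 3885 were kept in 2 lists and 294 in 1. The difference from these values was not tested.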
